A study of Mus musculus with 24 samples.

Results

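EMS404 cells, a line of mouse hepatic stellate cells, were sequenced with and without TGFb in the presence of SB431542, an inhibitor of the TGFb receptor. The 6 libraries of these 2 groups, of 24 in the study, were compared gene by gene to see which effects of TGFb remained when the receptor was inhibited. The line came from the liver of a C57Bl6 mouse, was immortalized with SV40 and expresses human TLR4, and all groups share this background. As 1 line, it stands for no other cells. The groups used here were SB431542+TGFb, SB431542, TGFb and vehicle, each with 3 libraries from biological triplicates. The sample labels call the vehicle group untreated (control), and the name vehicle is taken from the headers of its values, which read DMSO and veh. Headers of the TGFb group also read DMSO, which its labels leave out. Cells had the compound for 24 h and then the compound with TGFb at 10 ng/mL for a further 24 h. The sources used here give no dose of SB431542. They also leave unstated whether cells without TGFb had the second 24 h of culture, so TGFb and time in culture cannot be told apart.

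TGFb binds a type II receptor, which recruits and activates the type I receptor Tgfbr1. That kinase phosphorylates SMAD2 and SMAD3, which enter the nucleus with SMAD4, and the receptors also reach MAP kinases. In hepatic stellate cells the pathway drives the change into matrix-producing myofibroblasts. SB431542 occupies the kinase pocket of Tgfbr1 and of the activin and nodal receptors Acvr1b and Acvr1c, and is known to spare the type I receptors of BMP.

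The values are FPKM, read fragments scaled to transcript length and to the fragments of the library, as the authors deposited them. They summed to between 535077 and 555480 in the 6 libraries, and each of the 6 had 10939 to 11000 genes at 1 FPKM or more. The number of reads behind them is unknown; the smallest steps between values gave relative depths of 0.959 to 1.06. Of 15 stellate cell markers, 8 reached 1 FPKM in at least 1 of the 12 libraries, among them Vim, Pdgfra, Pdgfrb, Hand2 and Lhx2. Lrat had no value among the genes used, and Reln was listed at 0 throughout. The defining markers Des and Gfap stayed under 1 FPKM, as did Ngfr, Hgf and Colec10. Markers of mesothelium and portal fibroblasts were also abundant, with 9 of 12 at 1 FPKM or more. Hepatocyte markers summed to at most 0.19 FPKM in SB431542+TGFb and 0.15 FPKM in SB431542 libraries, and Alb and Hnf4a were listed at 0 in all 6. Of 7 cholangiocyte markers, 4 reached 1 FPKM, and their sum was 30.6 to 32.8 FPKM in SB431542+TGFb and 24.9 to 27.4 FPKM in SB431542 libraries. In that list Spp1, the matrix protein osteopontin, rose (mean 21.7 FPKM in SB431542+TGFb and 16.4 FPKM in SB431542) and Sox9 fell (mean 0.787 FPKM in SB431542+TGFb and 1.29 FPKM in SB431542), while Epcam and Cftr stayed under 1 FPKM. Spp1 lost its call without SB431542+TGFb replicate 1 or SB431542 replicate 2 or 3, and Sox9 without replicate 3 of either group. The mesothelial and portal markers summed to 1040 to 1140 FPKM in SB431542+TGFb and 1130 to 1190 FPKM in SB431542, with Fbln2 higher and Cd34 lower among 9 tested. The part of these cell types in the results was not tested.

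The promoters of 4 genes that rose with TGFb under the inhibitor show the sequence next to which these changes occurred. They span 250 bases before to 50 bases after the transcript start in RefSeq (GRCm38.p6), 5′ to 3′ on the gene's strand. Capitals mark CAGAC or its reverse complement GTCTG, the box that SMAD3 and SMAD4 bind, and GGAATG or its reverse complement CATTCC, the core that TEAD factors bind. Ccn1 lies at chr3:145649936-145650235 on the minus strand, Acta2 at chr19:34255324-34255623 on the minus strand, Kif26b at chr1:178528875-178529174 on the plus strand and Angptl7 at chr4:148500413-148500712 on the minus strand.
Ccn1: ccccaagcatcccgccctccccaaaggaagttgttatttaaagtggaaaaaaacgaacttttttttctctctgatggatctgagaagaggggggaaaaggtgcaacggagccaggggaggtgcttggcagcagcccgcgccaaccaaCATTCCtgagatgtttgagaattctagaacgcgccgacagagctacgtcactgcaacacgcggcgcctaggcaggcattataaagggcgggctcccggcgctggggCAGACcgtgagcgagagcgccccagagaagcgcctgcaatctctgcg
Acta2: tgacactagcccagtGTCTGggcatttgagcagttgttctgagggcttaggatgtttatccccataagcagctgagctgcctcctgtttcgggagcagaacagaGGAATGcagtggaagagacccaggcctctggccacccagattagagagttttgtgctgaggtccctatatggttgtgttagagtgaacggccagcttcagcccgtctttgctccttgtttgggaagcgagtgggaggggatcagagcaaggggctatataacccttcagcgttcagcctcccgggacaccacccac
Kif26b: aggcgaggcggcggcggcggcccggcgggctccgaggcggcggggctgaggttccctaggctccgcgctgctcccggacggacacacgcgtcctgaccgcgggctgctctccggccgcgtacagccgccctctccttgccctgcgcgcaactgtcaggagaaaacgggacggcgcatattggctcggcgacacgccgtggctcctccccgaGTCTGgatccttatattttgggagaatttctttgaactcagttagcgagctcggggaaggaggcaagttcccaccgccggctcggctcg
Angptl7: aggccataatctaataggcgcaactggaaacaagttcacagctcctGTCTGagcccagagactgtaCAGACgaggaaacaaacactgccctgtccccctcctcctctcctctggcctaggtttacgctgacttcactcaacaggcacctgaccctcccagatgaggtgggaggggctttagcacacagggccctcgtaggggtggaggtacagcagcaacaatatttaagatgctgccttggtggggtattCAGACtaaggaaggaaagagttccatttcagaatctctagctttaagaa
CAGAC was found once in the window of Ccn1, Acta2 and Kif26b and 3 times in that of Angptl7. GGAATG was found once each in Ccn1 and Acta2. On either strand, 49.6% of the 32851 promoters in the table hold CAGAC and 14.7% hold GGAATG, so the matches are common and describe the letters only. Of 5 promoters available for the 12 largest rises within SB431542, 3 (60%) held CAGAC. Those were Angptl7, Ccn1 and Kif26b, which are the ones shown, and Acta2 is not among the 12 largest rises. For the 12 largest falls, 7 of 12 available promoters (58.3%) held CAGAC.

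With SB431542 present, TGFb changed 493 of 11297 tested genes, 4.36% of them. Of these 227 were higher (2.01%) and 266 lower (2.35%) in SB431542+TGFb than in SB431542. The calls are from limma on log2(FPKM + 1) with p-values adjusted by Benjamini-Hochberg, at a threshold of 0.05. The changes were small: 3 rises and 0 falls reached 2-fold on that scale, and the median size of a called change was 0.29 (log2). At an unadjusted p under 0.05, 1853 genes differed. Without SB431542, TGFb changed 6199 genes (54.9%) against vehicle, 2311 upwards (20.5%) and 3888 downwards (34.4%), and 152 rises and 206 falls reached 2-fold. The difference between both responses, the interaction, passed the test for 3880 genes (34.3%). In these bulk libraries fewer cells of a type and less RNA per cell cannot be told apart.

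The count within SB431542 depended on single libraries. It was 244 and 243 without SB431542+TGFb replicates 1 and 2, and 199 without SB431542 replicate 3, while leaving out any other of the 12 libraries gave 364 to 513. The direction split also moved with the scaling: rescaled to TPM, 213 genes were higher and 145 lower, and with quantile normalization 290 were higher and 244 lower. For TGFb alone, 2311 genes were higher and 3888 lower, against 3004 and 2885 after TPM and 3068 and 3105 after quantile normalization. Positive and negative interactions numbered 2433 and 1447, against 1829 and 1732 after TPM and 2032 and 1962 after quantile normalization. All 3 SB431542+TGFb libraries lay above all 3 SB431542 libraries for 8.07% of tested genes and below them for 14.2%.

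**Figure D1:**
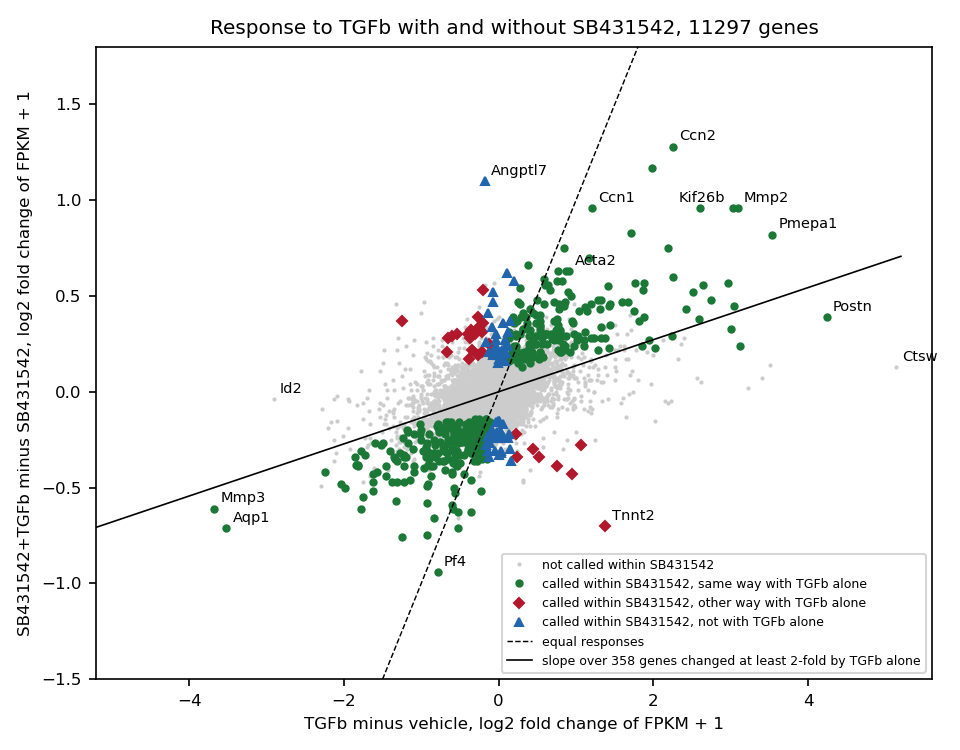
Each point is 1 of 11297 tested genes, with its log2 fold change (FPKM + 1) for SB431542+TGFb minus SB431542 on the vertical axis and for TGFb minus vehicle on the horizontal axis; colours give the calls within SB431542. The 358 genes changed at least 2-fold by TGFb alone follow a line with a slope of 0.136, far below the dashed line of equal responses, and Angptl7 and Tnnt2 lie off it.

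Most of the strong TGFb response was absent under the inhibitor, and a part of it remained in the same direction. The 358 genes with a called change of 2-fold or more by TGFb alone were chosen on group means that the comparison within SB431542 does not use. Both comparisons share 1 estimate of each gene's spread, so choice and calls are not fully separate. Of the 358 genes, 105 (29.3%) were called in the same direction within SB431542 and 3 in the other. The background was 4.36% called in either direction. By direction, 56 of 152 rises (36.8%) and 49 of 206 falls (23.8%) were called the same way. Among genes that TGFb alone changed by less than 2-fold, 298 of 5841 (5.1%) were called the same way, and of those it did not change, 61 of 5098 (1.2%) were called. The count of 105 was 64 and 66 without SB431542+TGFb replicates 1 and 2, and 60 without SB431542 replicate 3. For 355 of the 358 genes the interaction passed the test, beside 34.3% of all tested genes. The contrast that chose these genes is part of the interaction, so this count is largely built in.

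A slope through 0 of the response within SB431542 on the response to TGFb alone, over these 358 genes, was 0.17, 0.126 and 0.112 in the 3 SB431542+TGFb libraries. The remaining response was thus 13.6% ± 3.03 of the full one (SD, n = 3). It was 13.8% ± 1.36 for the rises and 13.3% ± 4.97 for the falls. Taken as differences between same-numbered SB431542+TGFb and SB431542 libraries, an alternative added after seeing the data, it was 14.1%, 14.8% and 11.9%, or 13.6% ± 1.52 (SD, n = 3 pairs). The median gene kept 12.9% of its log2 change among the rises and 14.9% among the falls. On the same axis, with the mean of the SB431542 libraries at 0, the TGFb libraries stood at 120% and the vehicle libraries at 19.6% ± 1.73 (SD, n = 3). SB431542+TGFb libraries therefore lay above all SB431542 libraries and below all vehicle libraries. Against vehicle itself, SB431542+TGFb differed in 395 genes (3.5% of those tested), with 0 at 2-fold or more by limma and 1728 genes at an unadjusted p under 0.05. The count was 180 to 240 without SB431542+TGFb replicate 2 or 3 or without any 1 of the vehicle replicates. SB431542 without TGFb differed from vehicle in 1910 genes (16.9%), 20 of them by at least 2-fold. Both comparisons share the vehicle libraries with each other and with TGFb alone. Of the 227 rises within SB431542, 190 (83.7%) were called lower in SB431542 than in vehicle, beside 5.05% of all tested genes. Of the 266 falls, 242 (91%) were called higher there, beside 11.9%. These counts are partly built in, since the SB431542 libraries enter both contrasts with opposite sign. Against vehicle, SB431542+TGFb was called higher for 8 of the rises (3.52%) and lower for 23 (10.1%). It was called higher for 66 of the falls (24.8%) and lower for 3 (1.13%). Of all tested genes, 2.88% were called higher and 0.62% lower in that comparison.

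**Figure D2:**
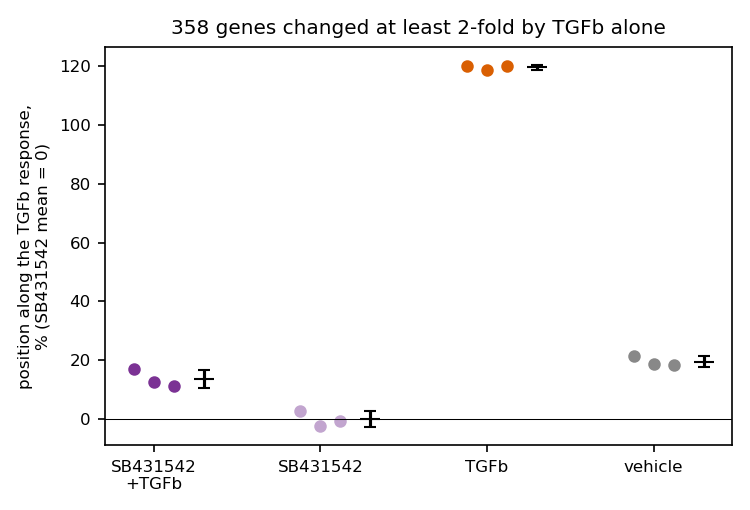
Position of each library along the response to TGFb alone, in percent of the log2 change over 358 genes, with the mean of the SB431542 libraries set to 0; points are libraries and bars the mean ± SD of 3. SB431542+TGFb libraries stand at 11.2% to 17%, under the vehicle libraries at 18.5% to 21.6%, and the TGFb libraries stand near 120%.

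The receptors themselves were present. Tgfbr1, the inhibitor's main target, had 8.83, 9.27 and 10.1 FPKM in SB431542+TGFb and 9.84, 9.4 and 10.3 FPKM in SB431542 libraries, and the groups overlapped (adjusted p = 0.788, limma). Acvr1b, the activin type I receptor, averaged 13.3 ± 1.17 FPKM in SB431542+TGFb and 13.1 ± 0.973 FPKM in SB431542 (SD, n = 3 each). Acvr1c stayed at or under 0.01 FPKM in these 6 libraries. Of type I receptors that SB431542 spares, Bmpr1a averaged 45.4 FPKM in SB431542+TGFb and 47.7 FPKM in SB431542, and Acvr1 averaged 13.6 FPKM in SB431542+TGFb and 12.4 FPKM in SB431542. Acvrl1 averaged 0.16 FPKM in SB431542+TGFb and 0.217 FPKM in SB431542, and Bmpr1b was at or under 0.01 FPKM in each library. With TGFb alone, 8 of 16 tested TGFb ligands, receptors and transducers rose and 5 fell, beside 20.5% and 34.4% of all tested genes. Within SB431542, 2 rose and 0 fell, beside 2.01% and 2.35%. The 2 were Ltbp1, which stores latent TGFb in the matrix, with a log2 change of 0.47, and Fst, an activin antagonist, with 0.58. Fst lost its call without either SB431542+TGFb replicate 2 or 3 or SB431542 replicate 1 or 3, where its adjusted p reached 0.0836.

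Known targets of TGFb and SMAD signalling were among the largest rises. Of 28 tested genes in that list, 12 rose and 1 fell (adjusted p under 0.05), against 2.01% and 2.35% of all tested genes. With TGFb alone 23 rose and 1 fell, against 20.5% and 34.4%. The list's median log2 change was 0.17 within SB431542 and 0.67 with TGFb alone, where all tested genes had -0.02 and -0.05. Leaving out any 1 library gave 11 to 14 called members.

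Ccn2, the matricellular growth factor CTGF, had 40.5, 30.1 and 30 FPKM in SB431542+TGFb libraries, against 15, 10.9 and 13.6 FPKM in SB431542 libraries. The groups did not overlap, and the log2 change was 1.28 (SE 0.258, adjusted p = 0.0074). With TGFb alone, Ccn2 averaged 174 ± 7.77 FPKM, against 36 ± 4.65 FPKM with vehicle (SD, n = 3 each; log2 change 2.25). Its SB431542+TGFb libraries thus reached the vehicle level and not the TGFb level. The interaction of -0.97 was near the threshold, at an adjusted p of 0.0477. It missed the threshold in 13 of 22 alternatives, with at most 0.106, among them the replicate block in the SB431542 groups (adjusted p = 0.0521) and leaving out either of SB431542+TGFb replicates 2 and 3, SB431542 replicates 1 and 3, vehicle replicates 2 and 3 or any TGFb replicate.

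Ccn1, the matricellular factor CYR61, had 136, 125 and 129 FPKM with SB431542+TGFb and 74.7, 63.2 and 60.8 FPKM with SB431542. It kept the most of its response among the called 2-fold genes, 79.7%, with a log2 change of 0.96 (adjusted p = 0.000662) beside 1.21 for TGFb alone. No difference between both responses was detected for Ccn1 (interaction -0.25, adjusted p = 0.397), except in the fit of the compared groups alone, where it reached 0.0496. Ccn1 averaged 130 ± 5.58 FPKM with SB431542+TGFb and 106 ± 6.35 FPKM with vehicle (SD, n = 3 each), a difference that did not pass the test (adjusted p = 0.376).

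Several members of that list are known to inhibit the pathway, and 5 of these rose, Skil, Ski (log2 change 0.17, adjusted p = 0.0216), Pmepa1, Ldlrad4 and Smad7, while Tgif1, Smurf1 and Smurf2 were not called (adjusted p = 0.53, 0.789 and 0.865). Ski, chosen after its values were seen, lost its call without SB431542+TGFb replicate 2 or 3 or SB431542 replicate 3 (adjusted p = 0.108, 0.0891 and 0.129). Skil, a SMAD co-repressor, had 3.5, 3.54 and 3.78 FPKM in SB431542+TGFb and 1.52, 1.62 and 1.62 FPKM in SB431542 libraries. Pmepa1, which sequesters SMADs, had 4.34, 3.7 and 3.73 FPKM in SB431542+TGFb and 1.84, 1.67 and 1.83 FPKM in SB431542 libraries. In both genes the groups stood well apart, with log2 changes of 0.83 (adjusted p = 2.08e-06) and 0.82 (adjusted p = 1.28e-08). Yet Pmepa1 averaged 71.6 FPKM with TGFb, against 5.24 FPKM with vehicle, so a log2 change of 3.54 had shrunk to less than 1. Ldlrad4, a further SMAD inhibitor, averaged 0.98 ± 0.168 FPKM with SB431542+TGFb and 0.303 ± 0.0115 FPKM with SB431542 (SD, n = 3 each). Its log2 change of 0.6 was 1.41 with a pseudocount of 0.1, since a pseudocount of 1 compresses low levels, and its span overlaps that of Fam210a.

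Smad7, the inhibitory SMAD, went another way. It had 7.01, 8.4 and 7.81 FPKM in SB431542+TGFb and 5.19, 5.54 and 4.51 FPKM in SB431542 libraries, a log2 change of 0.52 (adjusted p = 4.18e-05). TGFb alone left it without a detected change, at 7.38, 8.33 and 8.17 FPKM with TGFb and 8.27, 8.41 and 8.45 FPKM with vehicle (adjusted p = 0.431). The interaction was 0.59 (adjusted p = 5.61e-05), so the response was larger with the inhibitor than without it. Of all 4 groups, SB431542 without TGFb alone stood low.

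**Figure D3:**
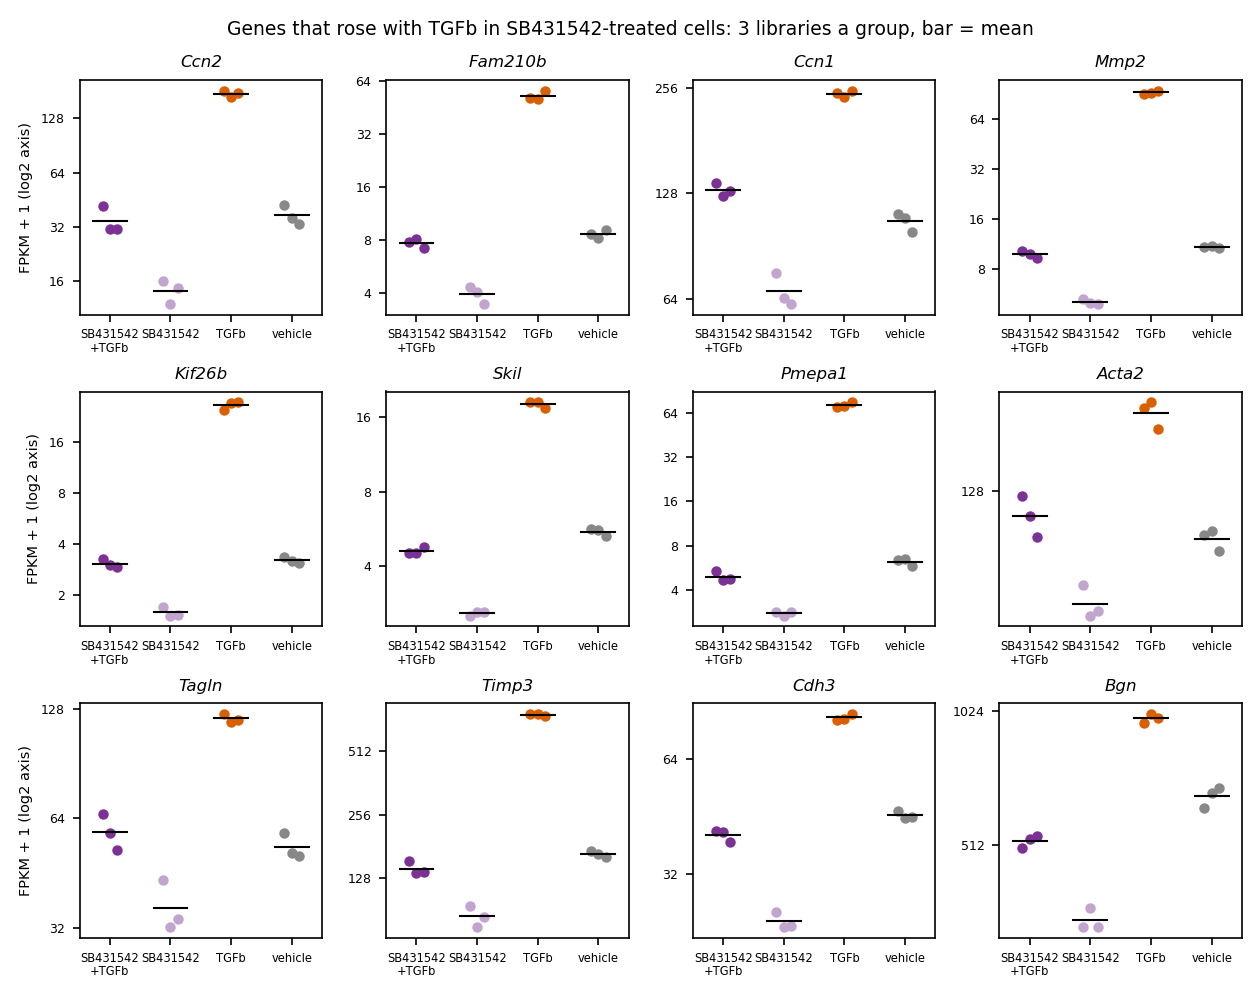
FPKM + 1 on a log2 axis in the 12 libraries of the 4 groups for 12 genes that rose with TGFb under SB431542; points are libraries and bars are means of 3. In each panel the SB431542+TGFb libraries lie above the SB431542 libraries; Ccn1 reaches 130 FPKM against 245 FPKM with TGFb, while Pmepa1 reaches 3.92 FPKM against 71.6 FPKM.

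BMP-SMAD targets, which TGFb alone lowered, had 1 call within SB431542, which for a list of this size is near the background of 4.36%. At an unadjusted p under 0.05 (limma), 4 of 9 tested members differed there, beside 16.4% of all tested genes. TGFb alone lowered 8 of 9 tested members and raised 1, beside 34.4% and 20.5% of all tested genes. Within SB431542 0 rose and 1 fell. That member was Bambi, a decoy receptor, which lost its call without SB431542+TGFb replicate 1 or SB431542 replicate 2 (adjusted p at most 0.106). Id2, an inhibitor of differentiation and a direct BMP target, had 48.3, 53.3 and 53.1 FPKM in SB431542+TGFb and 46.2, 60.8 and 52.8 FPKM in SB431542 libraries. The groups overlapped (log2 change -0.04, adjusted p = 0.901), while TGFb libraries had 5.61, 5.15 and 5.13 FPKM and vehicle libraries 45.1, 46.1 and 47.6 FPKM. Id1 and Id3 overlapped likewise within SB431542 (log2 changes of 0.15 and -0.02), where TGFb alone gave -1.5 and -2.09. The interaction passed the test for all 9 tested members, being positive for 8 and negative for 1, beside 21.5% and 12.8% of all tested genes.

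The ligand Bmp4 turned its direction. It had 51.5, 53.3 and 50.6 FPKM in SB431542+TGFb libraries, against 39.2, 40 and 40 FPKM in SB431542 libraries (log2 change 0.37, adjusted p = 0.000244). TGFb libraries had 23.5, 25.4 and 23.3 FPKM, against 59.3, 55.8 and 60.6 FPKM with vehicle (log2 change -1.25). No libraries of either pair overlapped, and the interaction was 1.62 (adjusted p = 3.67e-13). Fstl1, a secreted BMP antagonist, was the other riser of 13 tested BMP ligands, receptors and antagonists. Its log2 changes were 0.55 within SB431542 and 1.42 with TGFb alone. In that list 2 rose and 0 fell within SB431542, beside 2.01% and 2.35% of all tested genes.

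Matrix genes rose in part. Of 18 tested collagens, 7 rose and 0 fell within SB431542, beside 2.01% and 2.35% of all tested genes. With TGFb alone 14 rose and 4 fell, beside 20.5% and 34.4%. Without SB431542+TGFb replicate 1 or 2 or SB431542 replicate 3 the count within SB431542 was 4. Col1a1, a chain of fibrillar type I collagen, averaged 1430 ± 87.6 FPKM with SB431542+TGFb and 1160 ± 52.1 FPKM with SB431542 (SD, n = 3 each). Its log2 change of 0.3 had an adjusted p of 0.0336, which was lost in 7 alternatives (at most 0.174), including TPM, quantile normalization and leaving out any of SB431542+TGFb replicates 1 and 2 and SB431542 replicates 2 and 3. Col3a1 overlapped, at 204 FPKM with SB431542+TGFb and 210 FPKM with SB431542. Col4a2, of basement membrane collagen, had 74.9, 78.7 and 78.2 FPKM in SB431542+TGFb and 59.8, 63 and 61 FPKM in SB431542 libraries. Its log2 change of 0.33 was close to the 0.32 of TGFb alone, with an interaction of 0.01 (SE 0.058, adjusted p = 0.922); its span overlaps that of Col4a1. Col8a2, of the short-chain type VIII collagen, showed the contrast, with 0.45 within SB431542 and 3.04 with TGFb alone.

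Of 24 other matrix proteins, 8 rose and 1 fell within SB431542, beside 2.01% and 2.35% of all tested genes. Bgn, the proteoglycan biglycan, had 504, 529 and 535 FPKM in SB431542+TGFb and 335, 369 and 334 FPKM in SB431542 libraries. TGFb libraries had 963, 1010 and 988 FPKM and vehicle libraries 620, 669 and 686 FPKM. The log2 change was 0.59 in both settings, with an interaction of 0.01 (SE 0.077, adjusted p = 0.942). Fbln5, an elastic fibre protein, had 0.46 within SB431542 and 0.58 with TGFb alone, and its interaction did not pass the test either (adjusted p = 0.166). Postn, the matricellular protein periostin, averaged 41.3 FPKM with TGFb, against 1.24 FPKM with vehicle, and 1.27 FPKM with SB431542+TGFb, against 0.733 FPKM with SB431542. Its log2 change of 0.39 within SB431542 lost its call without SB431542+TGFb replicate 1 or SB431542 replicate 1 or 2 (adjusted p at most 0.156).

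Genes of matrix crosslinking and turnover went both ways, with 6 of 28 higher and 3 lower, beside 2.01% and 2.35% of all tested genes. Without SB431542+TGFb replicate 2 the count fell to 3 in all. Mmp2, a gelatinase, had 9.17, 8.87 and 8.35 FPKM in SB431542+TGFb and 4.26, 3.99 and 3.89 FPKM in SB431542 libraries (log2 change 0.96, adjusted p = 2.26e-10). TGFb took it to 91.4 FPKM, against 9.82 FPKM with vehicle. Timp3, a metalloproteinase inhibitor, had 154, 134 and 136 FPKM with SB431542+TGFb and 93.6, 74.3 and 83.1 FPKM with SB431542, though its span overlaps that of Syn3. Mmp3, the stromelysin that TGFb alone lowered most, had 25.5, 23.8 and 27.2 FPKM in SB431542+TGFb and 40.3, 37.8 and 40.5 FPKM in SB431542 libraries. The log2 change was -0.61 within SB431542 (adjusted p = 0.0102) and -3.68 with TGFb alone. That call was lost with a pseudocount of 0.1 and without SB431542+TGFb replicate 2 or SB431542 replicate 3 (adjusted p at most 0.0965).

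With TGFb alone, 11 of 17 tested genes in the contractile and myofibroblast list rose and 2 fell, beside 20.5% and 34.4% of all tested genes. Within SB431542, 5 rose, 0 fell and 12 were not called, beside 2.01% higher and 2.35% lower of all tested genes. The 5 were Acta2, Tagln and the integrin subunits Itga5, Itga11 and Itgb5, with log2 changes of 0.21, 0.27 and 0.28 for the integrins. Acta2, smooth muscle actin and the usual mark of an activated stellate cell, had 124, 112 and 101 FPKM in SB431542+TGFb libraries. SB431542 libraries had 79.2, 67.7 and 69.2 FPKM, TGFb libraries 193, 199 and 174 FPKM and vehicle libraries 102, 104 and 93.9 FPKM. SB431542+TGFb thus lay wholly above SB431542 and overlapped vehicle, with a log2 change of 0.63 within SB431542 (SE 0.145, adjusted p = 0.0142) and 0.91 with TGFb alone. Tagln, the actin-binding protein SM22, had 64.8, 57.4 and 51.6 FPKM with SB431542+TGFb and 42.3, 31.2 and 32.9 FPKM with SB431542 (log2 change 0.7, adjusted p = 0.02). Its span overlaps that of Pcsk7. Both genes lost their call without SB431542+TGFb replicate 1 or 2 or SB431542 replicate 2 or 3, where the adjusted p reached 0.0854 for Acta2 and 0.114 for Tagln, and the list's count was then as low as 2. Neither interaction passed the test (adjusted p = 0.31 for Acta2 and 0.135 for Tagln), but that of Tagln reached 0.0455 with a replicate block shared by all groups and 0.0253 in the fit of the compared groups alone.

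Fam210b, a mitochondrial protein, and Kif26b, a kinesin family member, were among the 12 largest rises and lie in none of the gene lists. Fam210b had 6.83, 7.13 and 6.21 FPKM in SB431542+TGFb and 3.36, 3.09 and 2.47 FPKM in SB431542 libraries. Kif26b had 2.26, 2 and 1.93 FPKM in SB431542+TGFb and 0.7, 0.51 and 0.53 FPKM in SB431542 libraries. Both had log2 changes of 0.96, against 2.6 and 3.03 with TGFb alone, and with a pseudocount of 0.1 that of Kif26b was 1.68. Cdh3, P-cadherin, instead responded about alike in both settings. It had 40.4, 40.2 and 37.9 FPKM in SB431542+TGFb, 24.6, 22.3 and 22.5 FPKM in SB431542, 79.8, 80.4 and 82.8 FPKM in TGFb and 45.8, 43.8 and 44.1 FPKM in vehicle libraries. Its log2 changes were 0.75 within SB431542 and 0.85 with TGFb alone, and the interaction was -0.1 (SE 0.079, adjusted p = 0.332).

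Some of the immediate early genes, rapid targets of MAP kinase signalling, rose within SB431542, also where TGFb alone did not raise them. Of 20 tested members 8 rose, 0 fell and 12 were not called within SB431542, beside 2.01% higher and 2.35% lower of all tested genes. With TGFb alone 6 rose and 6 fell, beside 20.5% and 34.4%. The interaction passed the test for 12, positive in 9 and negative in 3, beside 21.5% and 12.8% of all tested genes. The count within SB431542 was 5 without SB431542+TGFb replicate 2 or 3 or SB431542 replicate 3. Egr1, a zinc finger transcription factor, had 60.8, 64.6 and 68.4 FPKM in SB431542+TGFb libraries, against 41.6, 42.9 and 40.3 FPKM in SB431542 libraries (log2 change 0.62, adjusted p = 7.4e-06). TGFb libraries had 44.4, 45.5 and 45 FPKM and vehicle libraries 39.4, 44 and 41.8 FPKM, with no call except after TPM (adjusted p = 0.0449). Egr1 was therefore highest in SB431542+TGFb, which also exceeded vehicle by 0.62 (log2, adjusted p = 3.67e-05), while SB431542 and vehicle did not differ detectably (log2 0, adjusted p = 0.984).

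Fos, a partner of JUN in AP-1, had 5.48, 6.68 and 7.98 FPKM in SB431542+TGFb and 4.3, 4.5 and 4.04 FPKM in SB431542 libraries (log2 change 0.53, adjusted p = 0.000419). TGFb libraries had 3.9, 3.75 and 3.69 FPKM and vehicle libraries 4.47, 4.51 and 4.53 FPKM. The fall with TGFb alone (-0.2, adjusted p = 0.0472) was lost in 13 of 22 alternatives, which include each of the TGFb and vehicle libraries left out, but the interaction of 0.74 was not lost in any. Ier2, another immediate early gene, had 39, 39.3 and 41.3 FPKM in SB431542+TGFb and 26.2, 26.6 and 26 FPKM in SB431542 libraries. Its log2 change was 0.58 within SB431542 and 0.76 with TGFb alone, and the interaction did not pass the test (adjusted p = 0.184), except after TPM and in the fit of the compared groups alone. SB431542+TGFb exceeded vehicle in Fos (0.47) and Ier2 (0.52), and SB431542 did not differ detectably from vehicle in either (-0.06 in both, adjusted p = 0.687 for Fos and 0.613 for Ier2). Mmp2 and Kif26b showed another order, with SB431542 lower than vehicle (log2 differences of -1.1 and -1.02) and SB431542+TGFb not detectably different from vehicle (adjusted p = 0.193 for Mmp2 and 0.715 for Kif26b). Zfp36, which destabilises mRNAs of cytokines, had 12.7, 12.4 and 12.4 FPKM with SB431542+TGFb and 9.08, 10.7 and 9.36 FPKM with SB431542, and lost its call without SB431542 replicate 3 (adjusted p = 0.0624).

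**Figure D4:**
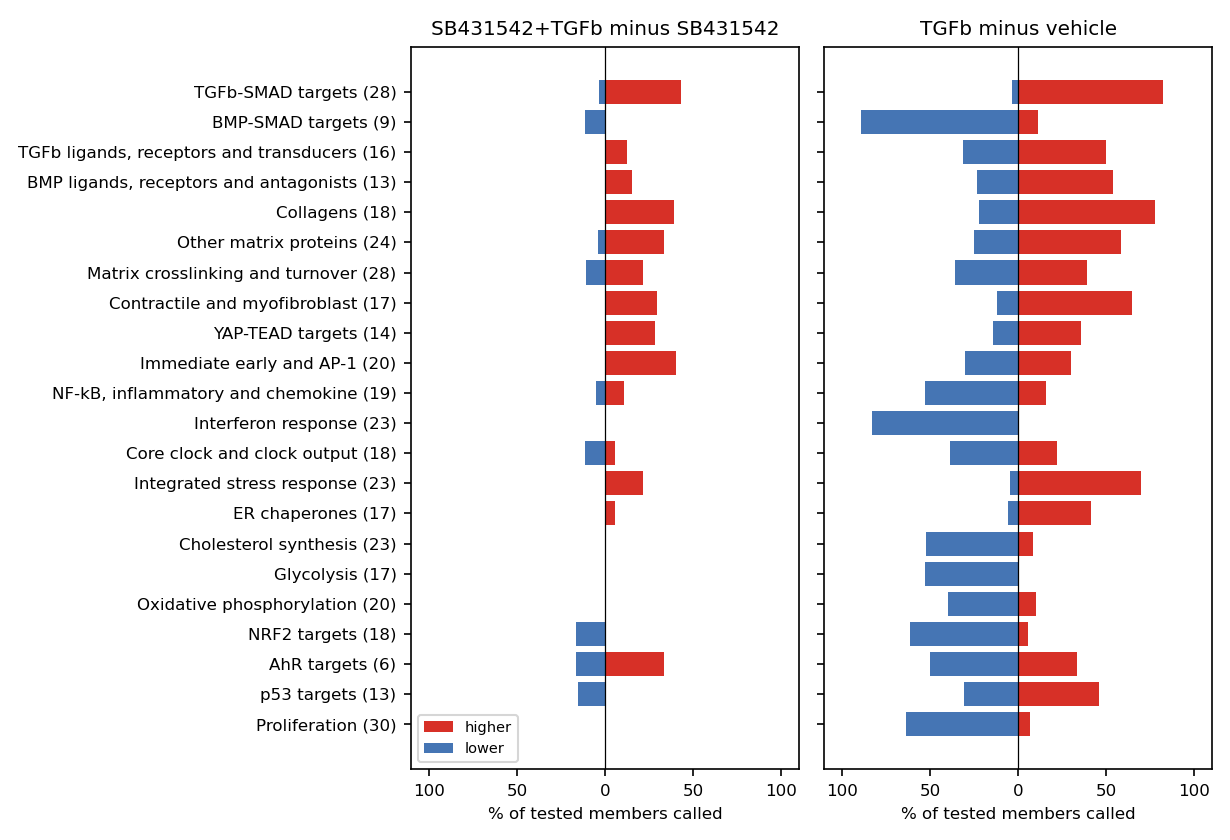
Percentage of tested members called higher (right) or lower (left) in each gene list, for SB431542+TGFb minus SB431542 and for TGFb minus vehicle, with the number of tested members in brackets. TGFb-SMAD targets, collagens and immediate early genes have called rises in both panels. BMP-SMAD targets and interferon genes, at 8 of 9 and 19 of 23 lower with TGFb alone, show 1 and 0 calls within SB431542. For lists of this size that is near the 4.36% called over all tested genes.

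Of genes that YAP and TEAD factors drive, 4 of 14 tested members rose and 0 fell, beside 2.01% and 2.35% of all tested genes. The risers were Ccn1, Ccn2, Ajuba and Amotl2, and the list shares members with the TGFb and SMAD list. Without SB431542 replicate 3, where Ajuba and Amotl2 lost their calls, the count was 2; Amotl2 lost it also without SB431542+TGFb replicate 1 or 2 or SB431542 replicate 2. With TGFb alone the integrated stress response had 16 rises and 1 fall of 23 tested, beside 20.5% and 34.4% of all tested genes. Within SB431542 it had 5 rises and 0 falls, beside 2.01% and 2.35%. Among them Fgf21, a stress hormone, averaged 2.67 ± 0.437 FPKM with SB431542+TGFb and 1.46 ± 0.145 FPKM with SB431542 (SD, n = 3 each). The count was 2 without SB431542 replicate 2, and up to 11 without another library. In the clock list Per1 rose and Dbp and Tef fell, each near the threshold (adjusted p = 0.0478, 0.0373 and 0.0236) and lost in 6 or more of 22 alternatives, Per1 also with the replicate block in the SB431542 groups (adjusted p = 0.054). Single libraries ended the call of Dbp (any SB431542+TGFb replicate and SB431542 replicates 1 and 2), of Tef (SB431542+TGFb replicates 1 and 3, SB431542 replicates 2 and 3) and of Per1 (any SB431542+TGFb replicate, SB431542 replicates 2 and 3, TGFb replicates 1 and 3, vehicle replicate 3). The list had 0 calls with TPM and without SB431542+TGFb replicate 1 or 3 or SB431542 replicate 2. Cyp1b1, a target of the aryl hydrocarbon receptor, had 24, 22.6 and 23 FPKM in SB431542+TGFb and 15.2, 15.3 and 15.2 FPKM in SB431542 libraries (log2 change 0.57, adjusted p = 4.28e-07). SB431542+TGFb exceeded vehicle in Cyp1b1 by 0.46 (log2, adjusted p = 4.83e-05), and TGFb took it to 58.9 FPKM, against 16.6 FPKM with vehicle.

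Beside 4.36% of all tested genes called within SB431542 and 54.9% with TGFb alone, 5 lists had no called member under the inhibitor, which for lists of this size is near that background. Interferon genes had 0 of 23 called within SB431542, and 19 lower with TGFb alone. Cholesterol synthesis had 0 of 23 (2 higher and 12 lower with TGFb alone), glycolysis 0 of 17 (0 and 9), oxidative phosphorylation 0 of 20 (2 and 8) and proliferation 0 of 30 (2 and 19). These counts are from limma. At an unadjusted p under 0.05 there were 2 interferon, 0 cholesterol synthesis, 0 glycolysis, 1 oxidative phosphorylation and 7 proliferation genes. Of all tested genes, 16.4% were under that unadjusted threshold within SB431542. Proliferation had up to 2 calls under alternative settings, and the other 4 lists had 0 in each. Of the remaining lists, NF-kB and inflammatory genes had 2 higher and 1 lower of 19 within SB431542, NRF2 targets 0 and 3 of 18, targets of the aryl hydrocarbon receptor 2 and 1 of 6, p53 targets 0 and 2 of 13 and ER chaperones 1 and 0 of 17, beside 2.01% higher and 2.35% lower of all genes. These small counts moved: the 3 NF-kB calls became 8 in the fit of the compared groups alone, and the 3 NRF2 calls became 1 without SB431542+TGFb replicate 2 or SB431542 replicate 2. The 2 p53 calls became 0 without SB431542+TGFb replicate 1 or 2 or SB431542 replicate 3, and the ER chaperone call was lost without SB431542+TGFb replicate 1 or SB431542 replicate 2 or 3. The interaction passed the test for 14 of 23 interferon genes and for 8 of 30 proliferation genes, beside 34.3% of all tested genes.

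The gene that TGFb alone raised most, Ctsw, which encodes a cathepsin of cytotoxic lymphocytes, was near 0 under the inhibitor. It had 37, 37 and 37.9 FPKM with TGFb, against 0.12, 0.03 and 0.12 FPKM with vehicle. SB431542+TGFb libraries had 0.17, 0.18 and 0.03 FPKM and SB431542 libraries 0.06, 0 and 0.03 FPKM, which overlapped. The span of Ctsw overlaps that of Fibp. Mfap4, Crispld2 and Nt5e, raised to 16.7, 11.3 and 11.8 FPKM by TGFb alone, were likewise at most 0.23 FPKM in each SB431542+TGFb library and were not called there, except Mfap4 with a pseudocount of 0.1 (adjusted p = 0.0437). Levels this low are close to the resolution of the table.

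The 266 called falls had a median log2 change of -0.27, beside 0.3 for the 227 rises, and which direction was the more numerous depended on the scaling, as given above. Igfbp6, which binds insulin-like growth factor, had 20.2, 20.7 and 22.8 FPKM in SB431542+TGFb and 31.4, 40 and 38.1 FPKM in SB431542 libraries (log2 change -0.75, adjusted p = 1.47e-05). TGFb alone gave -0.92, and the interaction did not pass the test (0.17, adjusted p = 0.31). Rdh10, which makes retinal from retinol, the vitamin that stellate cells store, had 8.27, 8.31 and 9.04 FPKM in SB431542+TGFb and 13, 13.4 and 14.4 FPKM in SB431542 libraries. Its log2 change was -0.61 within SB431542 and -0.59 with TGFb alone (interaction -0.02, SE 0.098, adjusted p = 0.887). SB431542+TGFb still exceeded vehicle in Rdh10 by 0.4 (adjusted p = 0.00125). Aqp1, a water channel, had 29.2, 40.7 and 44.8 FPKM with SB431542+TGFb and 51.9, 72.5 and 64.3 FPKM with SB431542 (log2 change -0.71, adjusted p = 0.0188). Its fall with TGFb alone was -3.52, and the call within SB431542 was lost in 6 alternatives, with a pseudocount of 0.1, TPM, a fit of the compared groups alone and without SB431542+TGFb replicate 1 or SB431542 replicate 2 or 3 (adjusted p at most 0.134).

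The fall that was largest on the log2(FPKM + 1) scale was at low levels. Pf4, a chemokine of platelets, had 0.87, 0.35 and 1.04 FPKM in SB431542+TGFb and 2.52, 2.13 and 2.32 FPKM in SB431542 libraries. It was listed at 0 in all TGFb libraries and had 0.34, 0.92 and 1.03 FPKM with vehicle. Its log2 change was -0.94 within SB431542 (adjusted p = 6.51e-05) and -1.61 with a pseudocount of 0.1. The interaction of Pf4, -0.15 and not past the threshold, turned to 1.39 with that pseudocount (adjusted p = 0.0256). Markers of macrophages and leukocytes summed to 1.96 to 2.69 FPKM in SB431542+TGFb and 1.86 to 2.06 FPKM in SB431542 libraries, and their part in these results was not tested.

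A smaller set of genes answered TGFb in opposite directions with and without the inhibitor. Of the 227 rises within SB431542, 174 (76.7%) were called the same way with TGFb alone, 21 (9.25%) the other way and 32 not at all. Of the 266 falls, 229 (86.1%) were called the same way, 8 (3.01%) the other way and 29 not at all. With TGFb alone, 20.5% of all tested genes were called higher and 34.4% lower. Opposite calls were thus rarer in both sets than these shares. Tnnt2, cardiac troponin T, had 0.5, 0.87 and 0.9 FPKM in SB431542+TGFb and 1.95, 1.84 and 1.7 FPKM in SB431542 libraries (log2 change -0.7, adjusted p = 0.000784). TGFb libraries had 3.18, 3.75 and 3.31 FPKM, against 0.65, 0.74 and 0.7 FPKM with vehicle (log2 change 1.38). The log2 change within SB431542 was -1.21 with a pseudocount of 0.1. SB431542 alone thus held Tnnt2 above vehicle, and SB431542+TGFb overlapped vehicle.

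Slc6a6, the taurine transporter, followed the same order at higher levels. It had 43.5, 42.4 and 43.2 FPKM in SB431542+TGFb and 57.3, 55.2 and 57.3 FPKM in SB431542 libraries, and 76.3, 73.3 and 77.3 FPKM in TGFb and 45.6, 43.6 and 44 FPKM in vehicle libraries. The log2 changes were -0.39 within SB431542 (adjusted p = 0.000811) and 0.76 with TGFb alone, with an interaction of -1.14. Ass1, of the urea cycle, had 7.3, 8.13 and 7.94 FPKM with SB431542+TGFb and 11.1, 10.4 and 11.1 FPKM with SB431542, and an interaction of -1.38. Prkab2, a subunit of AMP-activated kinase, turned the other way, at 12, 12.6 and 12.2 FPKM with SB431542+TGFb and 9.82, 9.22 and 8.33 FPKM with SB431542, where TGFb alone gave a log2 change of -0.27.

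Angptl7, a secreted angiopoietin-like protein, was the largest rise that TGFb alone did not give. It had 21.5, 29.1 and 28.6 FPKM in SB431542+TGFb and 10.3, 12.5 and 12.3 FPKM in SB431542 libraries (log2 change 1.1, SE 0.196, adjusted p = 0.00217). TGFb libraries had 19.1, 21 and 21.3 FPKM and vehicle libraries 21.8, 23.2 and 25 FPKM. The interaction was 1.28 (adjusted p = 0.00136), and with the compared groups fitted alone the small fall with TGFb alone was called as well (adjusted p = 0.0225). As for Smad7, SB431542 without TGFb was the low group. The span of Angptl7 lies within that of Mtor, and no source used here says whether strand was counted, so reads of both cannot be told apart.

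**Figure D5:**
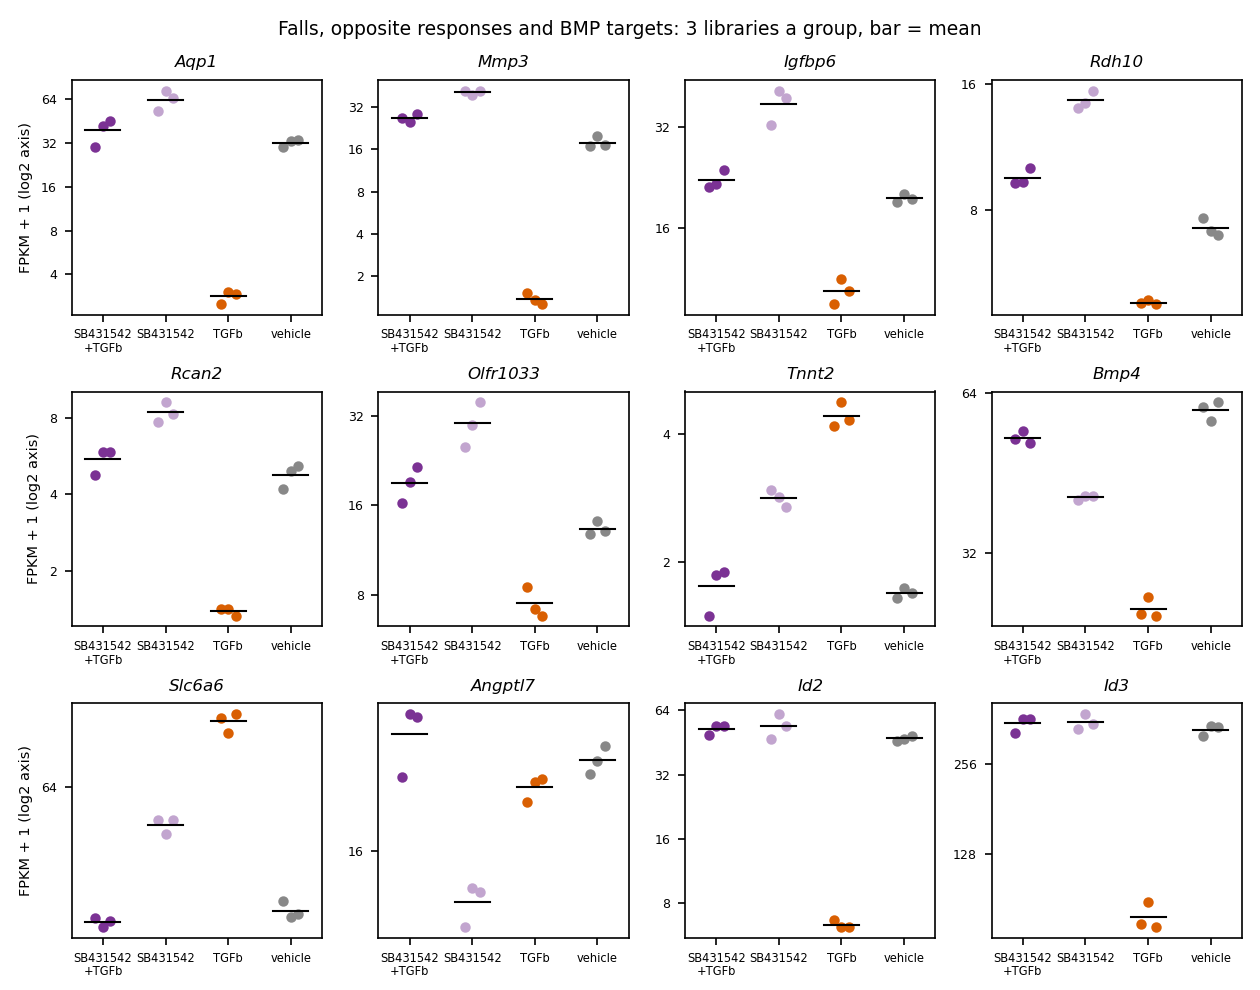
FPKM + 1 on a log2 axis in the 12 libraries of the 4 groups for 6 falls within SB431542 (Aqp1, Mmp3, Igfbp6, Rdh10, Rcan2, Olfr1033), 4 genes with an opposite or added response (Tnnt2, Bmp4, Slc6a6, Angptl7) and the BMP targets Id2 and Id3; points are libraries and bars are means of 3. Slc6a6 is highest with TGFb (75.6 FPKM) and in SB431542+TGFb (43 FPKM) lies near vehicle (44.4 FPKM), and Id2 is low in the TGFb libraries alone (5.3 FPKM).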

How the data were processed

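RNA from 24 cultures, in 8 groups of 3, was sequenced; all 24 libraries entered the fit. RNA came from kits of Macherey-Nagel or Qiagen by abundance, per the labels' protocols, with no source here saying which sample had which. The authors deposited FPKM values with 2 decimals, and HISAT2 2.0.4, Bowtie2 2.2.5, RSEM, DESeq2 and mm10 are named, per the submitters' processing notes, without their roles. Read totals are unknown, so no counting interval is given. Of 16612 identifiers, 8 stood on 2 lines each and were left out. Genes with at least 1 FPKM in at least 3 of the 24 libraries, 11297 in all, were fitted on log2(FPKM + 1) with limma 3.58.1 (R 4.3.3; trend and robust, two-sided, 16 residual degrees of freedom), so a fold change understates the change of low genes. P-values were adjusted by Benjamini-Hochberg over all tested genes, with a threshold of 0.05. The contrasts were SB431542+TGFb minus SB431542, TGFb minus vehicle, which shares no group mean with it, and their difference, the interaction. All contrasts share 1 estimate of each gene's spread. Both contrasts against vehicle were chosen after seeing the data. The fit was tested on simulated data. P-values measure the spread between these cultures of 1 line.

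The members, gene lists and named genes were chosen with earlier results of these data known. Named genes were the 12 largest called rises and falls within SB431542, the largest each way with TGFb alone, with opposite calls and by interaction, up to 4 members of each list by adjusted p, and a set of pathway genes; further list members with a call are named as such. A single gene among those selected is not reported here. Replicate numbers come from the labels. Deviations of same-numbered SB431542+TGFb and SB431542 libraries correlated (r = 0.415, 0.208 and 0.117 across genes, each over 0.1). These numbers were therefore taken to pair the samples in alternatives, while the main fit holds no pairs. Those of TGFb and vehicle (0.144, 0.219 and -0.0226) and of SB431542 and vehicle (0.299, 0.317 and -0.00692) were not all over 0.1. The alternatives were other pseudocounts (0.1 and 0.5), filters, TPM, quantile normalization, no trend, the compared groups alone, replicate blocks and each library left out. Gene positions and overlaps are from GENCODE M21 (GRCm38), and promoter sequences from RefSeq. Figures were drawn with matplotlib 3.10.9.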

Additional observations from a re-analysis of the deposited data

Results flagged for a closer look

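Of the 3880 genes whose interaction passed the test, 26 are given here: those called in opposite directions, those called within SB431542 but not with TGFb alone, and the 5 largest interactions in each direction, all among the named genes. For them the response to TGFb differed with and without SB431542 by the interaction term (limma, adjusted p under 0.05), given here as the log2 response within SB431542 minus that of TGFb alone. Of genes called in opposite directions, the values were 1.62 for Bmp4, 0.74 for Fos, 0.66 for Prkab2, 0.6 for Zfp36, 0.56 for Avpr1a, -2.07 for Tnnt2, -1.38 for Ass1, -1.14 for Slc6a6, -0.86 for Npr3 and -0.58 for Actr3b. The call within SB431542 was lost in 9 of 22 alternatives for Npr3 (each SB431542+TGFb and SB431542 library left out among them), in 7 for Actr3b (SB431542+TGFb replicates 2 and 3 and each SB431542 library among them) and without SB431542 replicate 3 for Avpr1a and Zfp36. The call with TGFb alone was lost in 13 for Fos, in 8 for Avpr1a (TGFb replicates 1 and 2 and vehicle replicates 2 and 3 among them) and in 4 for Actr3b (without TGFb replicate 1 or 2 or vehicle replicate 1 or 3). Genes called within SB431542 but not with TGFb alone had 1.28 for Angptl7, 0.59 for Smad7, 0.52 for Egr1, 0.33 for Per1, 0.2 for Amotl2 and -0.52 for Sox9. The interaction of Amotl2 (adjusted p = 0.0446) was lost in 11 of 22 alternatives, with TPM, quantile normalization, no filter, no trend and without SB431542+TGFb replicate 1 or 2, SB431542 replicate 2 or 3, TGFb replicate 1 or 2 or vehicle replicate 1. The 5 largest interactions in each direction were -5.01 for Ctsw, -3.85 for Postn, -3.37 for Mfap4, -3.33 for Crispld2, -3.2 for Nt5e, 3.07 for Mmp3, 2.87 for Id2, 2.81 for Aqp1, 2.2 for Serpind1 and 2.08 for Rasl11a.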

How the results depend on the processing

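The count of genes changed within SB431542 ranged from 199 to 513 with 1 library left out and from 346 to 547 under the other settings, beside 493. The genes changed at least 2-fold by TGFb alone and called the same way within SB431542 numbered 60 to 102 with 1 library left out, beside 105. The count for SB431542+TGFb minus vehicle ranged from 180 to 405 with 1 library left out, beside 395. The slope stayed between 0.119 and 0.151. No named gene called within SB431542 or with TGFb alone changed its direction in an alternative; uncalled values near 0, such as those of Id2, Id3, Col3a1, Nt5e and Acvr1b within SB431542, changed sign. With a pseudocount of 0.1 the interaction turned positive for 4 genes whose means were under 3 FPKM in SB431542 and vehicle, to 1.39 for Pf4 (-0.15 with a pseudocount of 1), 0.84 for Itih4 (-0.19), 0.65 for Parvb (-0.27) and 1.39 for Cxcl13 (-0.1); the pseudocount sets how far such low levels are compressed.

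With the replicate block shared by all groups the count within SB431542 was 547, and with the block in the SB431542 groups only it was 542; that second fit gives no value for the contrasts against vehicle. Under a block, no other call named in the text changed than those given beside Ccn2, Tagln and Per1. FPKM values give relative levels, and the depth of each library is unknown, so genes under about 1 FPKM rest on few reads.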
